A study of Mus musculus with 18 samples.

Results

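The cell cycle and DNA replication genes were 45 genes chosen by name for their place in chromosome duplication and division, not by their measured values. The choice was made with earlier results of these data known. All 45 had at least 1 probe on the array, and 43 entered the tests, out of 19217 genes tested in all. Arrays were hybridised with RNA from 18 fractions of C57BL/6 male, young adult mice, in 6 groups of 3. The groups were brown adipocytes and brown SVF from the interscapular depot, inguinal adipocytes and inguinal SVF, and epididymal adipocytes and epididymal SVF. SVF is the stromal-vascular fraction, the pelleted cells of collagenase-digested fat after lysis of erythrocytes, and the adipocytes are the cells that floated. No group received a treatment or carries an engineered allele. Neither fraction was sorted, so each SVF library is a mixture of progenitors, endothelial, mural and immune cells, and the labels do not say whether animals were pooled or whether an adipocyte and an SVF library came from the same animals. In such bulk samples, fewer cells of a type and less RNA per cell cannot be told apart.

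A dividing cell first licenses its replication origins with the MCM helicase and makes the enzymes that supply nucleotides, then copies its DNA, and later builds the spindle and the kinetochores that separate the chromosomes. Genes of the early steps are classically driven by E2F factors, whereas genes of the late steps are held silent in resting cells by the DREAM complex, which contacts a short promoter element named CHR, and are switched on through B-MYB and FOXM1. Mature adipocytes are regarded as cells that have left the cycle, and new ones arise from progenitors that lie in the SVF.

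This division of early and late genes was visible in the letters of the promoters. The stretches below show the 180 bases upstream of the RefSeq start of 3 late genes with a CHR and of 2 licensing genes with E2F letters, 5′ to 3′ on the strand of the gene, from RefSeq on build GRCm38.p6. Capitals mark CHR letters (TTTGAA or TTCGAA) and E2F letters (the run TTCGCGC, the run TTGGCGC, the run TTCCCGC or the run TTGCCGC) read on either strand. Matches can overlap, as in Mcm5 and Mcm6. They lie at chr11:99024190-99024369 (minus strand, Top2a), chr7:135716380-135716559 (minus, Mki67), chr4:118437344-118437523 (minus, Cdc20), chr8:75109329-75109508 (plus, Mcm5) and chr1:128359706-128359885 (minus, Mcm6).
Top2a: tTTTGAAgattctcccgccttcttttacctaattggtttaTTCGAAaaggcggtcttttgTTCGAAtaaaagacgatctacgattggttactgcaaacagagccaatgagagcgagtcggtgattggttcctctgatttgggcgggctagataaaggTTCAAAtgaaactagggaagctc
Mki67: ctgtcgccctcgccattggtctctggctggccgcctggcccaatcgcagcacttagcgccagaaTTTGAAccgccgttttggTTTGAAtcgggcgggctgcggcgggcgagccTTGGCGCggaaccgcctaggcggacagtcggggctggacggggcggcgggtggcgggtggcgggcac
Cdc20: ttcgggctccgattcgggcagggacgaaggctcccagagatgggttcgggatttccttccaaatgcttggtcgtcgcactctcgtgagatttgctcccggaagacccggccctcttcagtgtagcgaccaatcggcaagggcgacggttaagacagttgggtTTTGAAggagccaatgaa
Mcm5: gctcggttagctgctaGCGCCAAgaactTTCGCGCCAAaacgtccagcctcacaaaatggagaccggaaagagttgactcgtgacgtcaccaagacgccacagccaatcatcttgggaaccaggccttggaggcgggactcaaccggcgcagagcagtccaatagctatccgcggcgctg
Mcm6: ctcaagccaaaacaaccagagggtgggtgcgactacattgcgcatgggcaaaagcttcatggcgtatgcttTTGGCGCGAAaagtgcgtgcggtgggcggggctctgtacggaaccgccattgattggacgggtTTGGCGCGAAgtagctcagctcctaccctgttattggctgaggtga

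The Top2a stretch held 4 CHR matches and no E2F match, Mki67 held 2 CHR matches and 1 E2F match, and Cdc20 held 1 CHR match. Mcm5 held 3 E2F matches and Mcm6 held 4, and neither held a CHR match. Promoter windows of 250 bases before to 50 after the start were given for 37 of the 45 members. Replication members are here the genes of licensing, G1/S cyclins, DNA synthesis and nucleotide supply. All other members are called mitotic, the S to G2 genes Ccna2, Top2a and Mki67 among them. CHR letters stood in 21 of 27 windows of mitotic members (77.8%) and in 2 of 12 windows of replication members (16.7%), against 17.6% of 21263 windows of protein-coding genes. Within 50 bases of the start, CHR letters stood in 19 of the 27 mitotic windows (70.4%), in 0 of the 12 replication windows and in 4.3% of all windows. E2F letters ran the other way, with 4 of 27 mitotic windows (14.8%), 8 of 12 replication windows (66.7%) and 12.1% of all windows. CCAAT on either strand, a match to which may overlap a CHR match, was found in 23 of 27 mitotic windows (85.2%), 9 of 12 replication windows and 38.2% of all windows. A match describes letters only and is not a shown binding site.

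**Figure D1:**
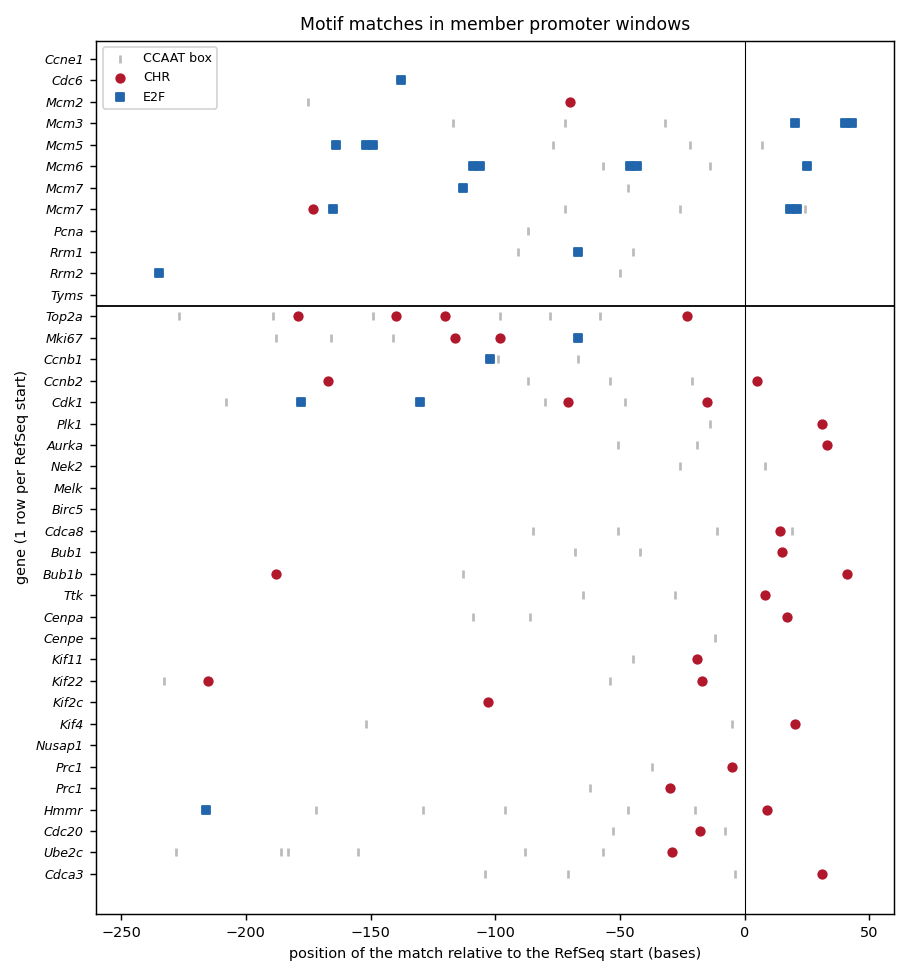
Positions of CHR (red circles), E2F (blue squares) and CCAAT (grey ticks) matches in the promoter windows of 37 members, 1 row per RefSeq start; the horizontal axis is the distance from the start in bases, negative upstream. CHR matches lie mostly in the mitotic members below the line, 19 of 27 windows having 1 within 50 bases of the start, and E2F matches mostly in the replication members above it.

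Levels are given as the log2 processed signal of a gene's brightest probe minus the log2 75th percentile of its array, so that 0 is the 75th percentile and levels of different genes are not compared. Replicates of a group correlated at 0.878 or more over all genes. The share of spots well above background was 49.6% to 58.5% in brown adipocytes and 56.5% to 87.9% in the other 15 libraries. Adipocyte markers fitted the labels: 11 of 12 were higher in brown adipocytes than in brown SVF, 12 of 12 in inguinal adipocytes and 12 of 12 in epididymal adipocytes, and 11, 9 and 7 of 12 progenitor and fibroblast markers were lower in those 3 comparisons. The library labelled inguinal SVF 1 went against its male label, with Xist at 5.11, against -4.50 or less in the other 17 libraries, and Ddx3y at -6.37, against 0.24 or more. Its mesothelial markers averaged 4.0, against -4.97 and -4.89 in inguinal SVF 2 and 3. Epididymal adipocyte 3 stood apart by its brown adipocyte markers, with a mean of 1.74, against -1.42 and -1.59 in epididymal adipocytes 1 and 2. Results are also given without these 2 libraries. The inguinal and epididymal adipocyte arrays were read with an earlier version of the extraction software and lay on slides of their own, whereas all brown and all SVF arrays were read with a later version and lay on 3 shared slides.

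Of the 45 members, brown adipocytes had 26, 32 and 35 well above background on their 3 arrays, and the other 15 libraries had 36 to 45. Ttk and Hmmr, a spindle checkpoint kinase and a spindle-associated hyaluronan-binding protein, were each above background on 2 arrays of 18 and in no group on all 3, so they were not tested. Over the 30 mitotic members tested, the median level was -3.21, -3.25 and -2.75 in the brown adipocyte libraries and -1.76, -2.64 and -1.55 in the brown SVF libraries. It was -1.91, -1.56 and -2.73 in inguinal adipocytes, against -2.19, -1.40 and -0.13 in inguinal SVF. Epididymal adipocytes had -1.67, -1.90 and -1.75, against -1.61, -1.16 and -0.47 in epididymal SVF. All 3 brown adipocyte libraries lay below all other libraries, and the SVF groups spread more widely than the epididymal adipocytes. The mean was lowest in brown adipocytes, among the 6 groups, for 26 of the 30 mitotic members, 6 of them above background on no brown adipocyte array, and for 3 of the 13 replication members. The highest mean was in an SVF group for 37 of the 43 members, 28 of them in epididymal SVF and 8 in inguinal SVF. Aurkb and Kif2c, among those highest in epididymal SVF, entered the tests only because all 3 arrays of that group were above background. The shares of all genes lowest in brown adipocytes or highest in an SVF group are not given. These counts of lowest and highest means are therefore not read as results about the members.

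**Figure D2:**
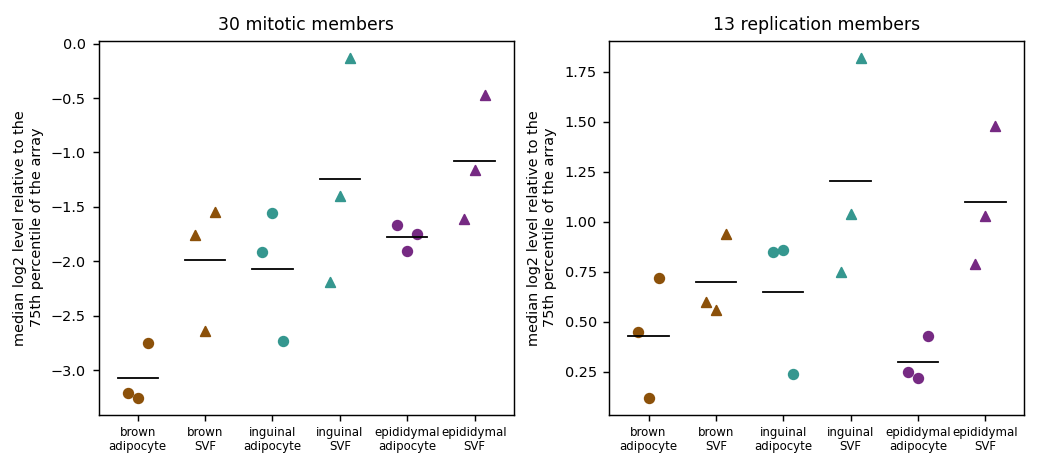
Median log2 level of the 30 mitotic members (left) and the 13 replication members (right) in each library, relative to the 75th percentile of the array; circles are adipocytes, triangles SVF, and the line is the group mean. The mitotic medians of brown adipocytes, -3.21, -3.25 and -2.75, lie below all others, whereas the replication medians, 0.45, 0.12 and 0.72, overlap with those of other groups.

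In 4 of the 6 groups, at least 1 library was the highest or the lowest of its group for 36 or more of the 43 members. Inguinal SVF 3 had the highest level of its group for 42 of 43 members and epididymal SVF 3 for 35, whereas brown SVF 2 had the lowest for 40, inguinal adipocyte 3 for 39, inguinal SVF 1 for 38 and epididymal SVF 1 for 36. In brown and epididymal adipocytes no library reached that count: the most members for which 1 library was highest was 22 and 20, and lowest 22 and 27. Some marker lists moved with these libraries and others did not. B cell markers averaged 3.1 in inguinal SVF 3, against -2.30 and 0.61 in inguinal SVF 1 and 2, and T and NK cell markers 2.07, against -2.14 and -0.58. Macrophage markers, at 1.37, and progenitor and fibroblast markers, at 4.46, were instead lowest of the group in inguinal SVF 3. In inguinal adipocyte 3 the means of the B cell and the T and NK cell lists were -3.0 and -3.01, against 0.90 and 0.68 for B cells and 0.23 and 0.14 for T and NK cells in inguinal adipocytes 1 and 2. Brown SVF 2 had the highest mean of adipocyte markers of any SVF library, 5.71, against 3.40 and 3.53 in the other brown SVF libraries. Macrophage markers averaged 3.66 in epididymal SVF 3, against 2.28 and 2.81 in epididymal SVF 1 and 2. The part of these cells in the spread of the members was not tested.

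**Figure D3:**
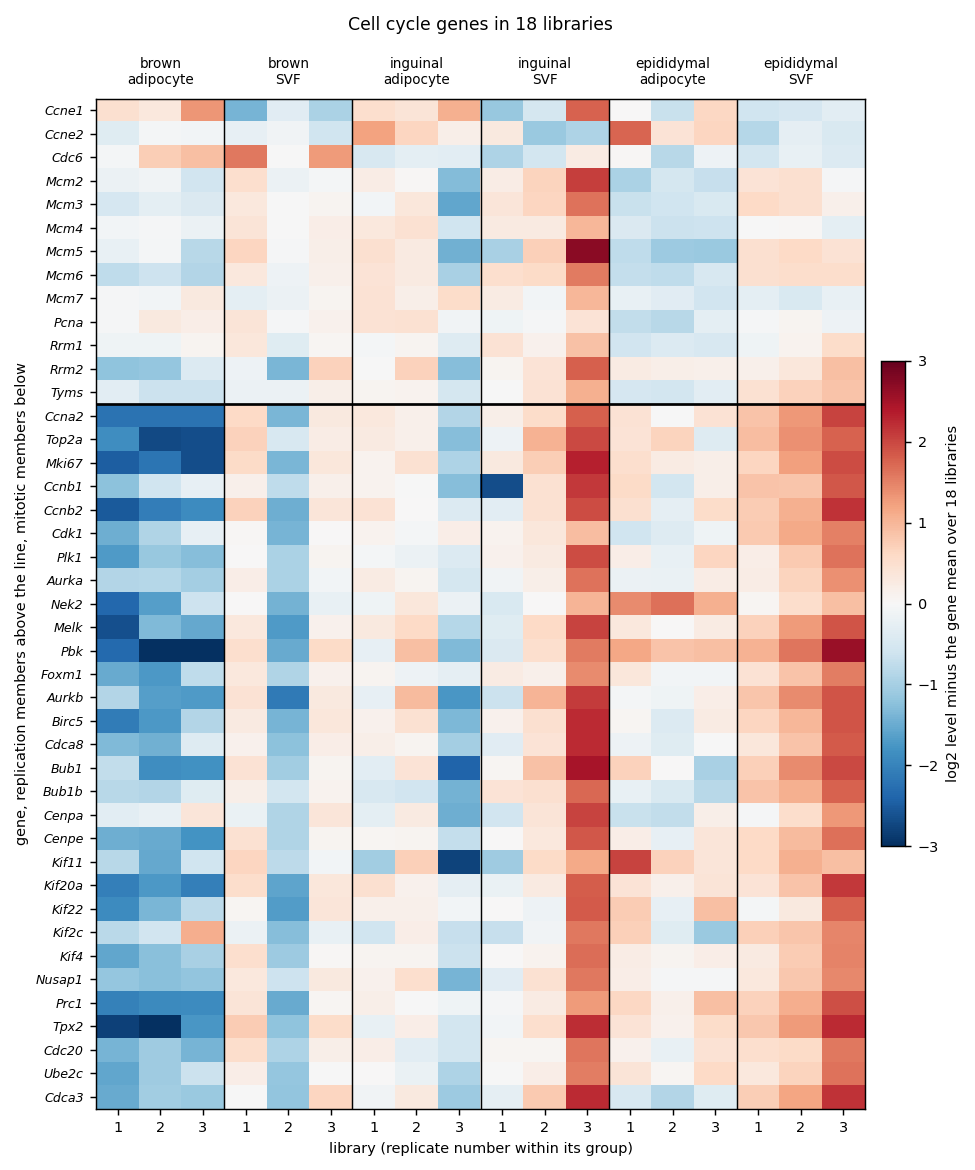
Log2 level of each of 43 members in each of 18 libraries minus the gene's mean over the 18, in blue below the mean and red above it; rows are genes, columns are libraries by group. Brown adipocytes are blue for most mitotic genes, and inguinal SVF 3 is red for nearly all genes, being the highest of its group in 42 of 43.

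The first question was how floating adipocytes differ from the SVF of the same depot. In brown fat, 8 of 43 members fell in adipocytes and 0 rose (limma, adjusted p under 0.05), where 20.4% of all genes were called, 11.6% higher and 8.74% lower. The median difference of the members was -0.90 on the log2 scale, against 0.10 for all genes. All 8 were counted as mitotic members, 3 of them the S to G2 genes Ccna2, Top2a and Mki67. The median was -1.13 over the 30 mitotic members, against -0.37 over the 13 replication members, of which 0 were called. With arrays below the lowest measurable signal raised to it, the medians were -0.64 over all members, -0.76 over mitotic and -0.37 over replication members. Levels did not overlap between the fractions for 18 of the 43, against 46.1% of all genes. The same sign appeared on each of the slides that held both fractions. On slide 6, with 1 array each, the median was -1.02 and 37 of 43 differences were negative, and on slide 7, with 2 arrays each, it was -0.83 with 39 negative.

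Mki67, the gene of the Ki-67 protein that coats mitotic chromosomes, had levels of -1.96, -1.68 and -2.15 in brown adipocytes, against 1.09, -0.86 and 0.85 in brown SVF. The groups did not overlap, though brown SVF 2 lay well below the other SVF libraries. Mki67 was 4.89-fold lower in adipocytes (log2 difference -2.29, SE 0.57, limma adjusted p = 0.00971). A second Mki67 probe gave a fitted difference of -2.95, whose size is not measured. Its brown adipocyte mean, -4.91, lay below the lowest measurable signals of those arrays (-3.44, -4.28 and -4.24).

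Ccna2, the cyclin of S and G2 phase, above background on 2 of 3 brown adipocyte arrays, stood at -3.34, -3.35 and -3.34 in brown adipocytes and at -0.52, -2.50 and -0.83 in brown SVF, a 4.17-fold lower level in adipocytes (limma adjusted p = 0.0102). Top2a, the topoisomerase that untangles replicated chromosomes and whose promoter held 4 CHR matches, was at -5.69, -6.53 and -6.49 in brown adipocytes, not well above background on any of the 3 arrays, against -3.14, -4.30 and -3.61 in brown SVF. For such probes a fold is a bound, the mean of the brighter group against, per array, the higher of the probe's own value and the lowest signal of any probe well above background. Top2a was at least 1.23-fold lower (limma adjusted p = 0.00355). Tpx2, which activates Aurora A on the spindle, was at least 2.23-fold lower, and Pbk, a mitotic kinase, at least 1.60-fold lower (both 0.00717). Adjusted p-values beside a bound, here and below, test the fitted difference and not the bound. The fitted differences were -2.55 for Top2a, -2.56 for Tpx2 and -2.78 for Pbk. Each call was kept under 17 of 18 alternatives, and the weakest differences were -0.06, -0.48 and -0.36.

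Ccnb2, a mitotic cyclin, fell 4.05-fold in brown adipocytes relative to brown SVF. Its levels were -2.51, -2.08 and -1.88, against 0.68, -1.46 and 0.37. Prc1, which bundles the microtubules of the spindle midzone, fell 3.02-fold and Cenpe, a kinetochore motor, 2.76-fold. A second Cenpe probe gave -0.22 where the brightest gave -1.47, so the Cenpe call rests on 1 of 2 kept probes. Of the regulators that did not pass, Foxm1 had a difference of -1.18 (limma adjusted p = 0.0524), Cdc20, the activator of the anaphase-promoting complex, -1.21 (0.0735), Cdk1 -0.42 (0.504) and Ccnb1 -0.55 (0.701).

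Among the replication genes, Pcna, the sliding clamp of DNA polymerase, was at 3.55, 3.86 and 3.78 in brown adipocytes and at 3.96, 3.54 and 3.71 in brown SVF, and the groups overlapped, with a difference of -0.01 (SE 0.24, limma adjusted p = 0.985). Mcm6, a subunit of the helicase, was at 2.20, 2.32 and 2.08, against 3.26, 2.81 and 3.11, with no overlap but an adjusted p of 0.0871 for a difference of -0.86. Differences were -0.37 for Mcm2 and -0.65 for Rrm2, the cell cycle regulated subunit of ribonucleotide reductase, and neither passed. Ccne1, the cyclin that opens S phase, ran the other way. Its levels were -0.12, -0.29 and 0.72 in brown adipocytes and -1.98, -0.93 and -1.55 in brown SVF, so that the groups did not overlap, and the difference was 1.59 (SE 0.58, limma adjusted p = 0.0675).

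The count of members called in the brown fraction comparison moved with single SVF libraries and with the background method. It was 13 without brown SVF 2, 3 without brown SVF 1 or brown SVF 3, 5 without brown adipocyte 1, and 1 with a normexp background correction. The share of all genes called in such altered runs is not given, here or for the comparisons below. Counts from those runs are therefore not read as results about the members. In the same comparison, 9 of 11 macrophage markers, 11 of 12 progenitor and fibroblast markers, 4 of 5 mast cell markers and 3 of 10 T and NK cell markers were lower in brown adipocytes. Macrophage markers averaged -2.03 to -0.59 in brown adipocytes, against 1.46 to 2.11 in brown SVF, and progenitor and fibroblast markers 0.35 to 1.01, against 4.49 to 5.13. Their part in the members' difference was not tested.

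In inguinal fat, 2 of 43 members fell in adipocytes and 1 rose, where 14.2% of all genes were called, 8.96% higher and 5.27% lower. The member median was -0.80, against -0.02 for all genes, and 38 of 43 differences were negative. The fractions did not overlap for 7 members, against 27.2% of all genes. Bub1b, the BubR1 kinase of the spindle checkpoint, was at -2.98, -3.07 and -3.93 in inguinal adipocytes, against -2.10, -2.02 and -0.79 in inguinal SVF. It fell 3.23-fold with no overlap (limma adjusted p = 0.0111). Mcm3, another helicase subunit, was at 1.33, 1.74 and -0.15, against 1.77, 2.06 and 3.04, and fell 2.49-fold (0.041). Ccne2, the second E cyclin, was above background on 3 of 3 arrays of inguinal adipocytes and 0 of 3 of inguinal SVF, and rose by at least 1.39-fold (0.0499). Ccne2 entered the tests only through inguinal adipocytes, the only group with 3 of 3 arrays above background. The filter thus selected Ccne2 for signal in the group where it was called higher, and the call is no independent support. The Ccne2 call was kept under 4 of 18 alternatives.

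Mki67 had a difference of -1.23 (limma adjusted p = 0.16), with levels of 0.61, 0.97 and -0.41 in inguinal adipocytes and 0.79, 1.24 and 2.83 in inguinal SVF. These groups overlapped, and the highest value lay in inguinal SVF 3. Top2a (-1.24), Ccna2 (-0.98), Mcm2 (-1.33), Mcm6 (-0.98), Rrm2 (-0.96), Cdc20 (-0.80), Foxm1 (-0.72), Cdk1 (-0.38) and Ccnb1 (-0.37) did not pass, nor did Pcna (0.18) and Ccne1 (0.62), as log2 differences. The count of members called was 6 without inguinal SVF 1, the library at odds with its label, 5 without it and epididymal adipocyte 3, 1 without inguinal SVF 2, and 0 without inguinal adipocyte 3. In the same comparison 9 of 12 progenitor and fibroblast markers and 0 of 11 macrophage markers were lower in inguinal adipocytes. Since all 3 adipocyte arrays had their own slides and software version, this difference and those batches cannot be told apart.

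In epididymal fat, 5 of 43 members fell in adipocytes and 1 rose, where 25.2% of all genes were called, 17.9% higher and 7.31% lower. The member median was -0.96, against 0.04 for all genes. The fractions did not overlap for 31 members, against 49.5% of all genes. Bub1b was again lower, at -2.72, -2.97 and -3.34 in epididymal adipocytes, against -1.64, -1.45 and -0.74 in epididymal SVF, a 3.32-fold fall (limma adjusted p = 0.00581). Cdk1, the kinase that drives entry into mitosis, was at -3.01, -2.79 and -2.54, against -1.62, -1.27 and -0.89, a 2.86-fold fall (0.0118). Cdca3, a trigger of mitotic entry, fell 3.81-fold (0.0265).

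Mcm6 was tight within both epididymal groups. It was at 2.23, 2.18 and 2.48 in epididymal adipocytes and at 3.44, 3.47 and 3.48 in epididymal SVF, a 2.25-fold fall (limma adjusted p = 0.0205). Tyms, thymidylate synthase, fell 2.18-fold by its brightest probe (0.00826). Of its other probes, 1 gave -1.02 and 1 gave 1.28 (adjusted p = 0.077), so the Tyms probes disagree in sign. Ccne2 rose in epididymal adipocytes (0.0169) but was above background on 2 of 3 adipocyte arrays and 1 of 3 SVF arrays. Its fitted log2 difference was 1.46, or 1.38 with the dim arrays raised to the lowest measurable signal, and this call was lost after quantile or median scaling.

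Mki67 had a difference of -0.97, Top2a -1.12, Ccna2 -1.11, Ccnb1 -1.12, Cdc20 -0.77, Foxm1 -0.88, Mcm2 -1.01, Pcna -0.59, Rrm2 -0.27 and Ccne1 0.47 between epididymal adipocytes and epididymal SVF, none of which passed. With the replicate number as a block, 3 members were lower and 1 higher, and without epididymal adipocyte 1, which had 87.9% of spots above background, 2 were called. Without epididymal adipocyte 3 and inguinal SVF 1, the libraries that stand apart, 5 members were lower and 1 higher. With arrays scaled to their median, which shifts every difference here by -0.50, 17 members fell and 0 rose. Software version and slide cannot be told apart from the fraction here either. In epididymal adipocytes, 1 of 11 macrophage markers and 7 of 12 progenitor and fibroblast markers were lower, and macrophage markers averaged 1.02 to 2.17, against 2.28 to 3.66 in epididymal SVF.

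**Figure D4:**
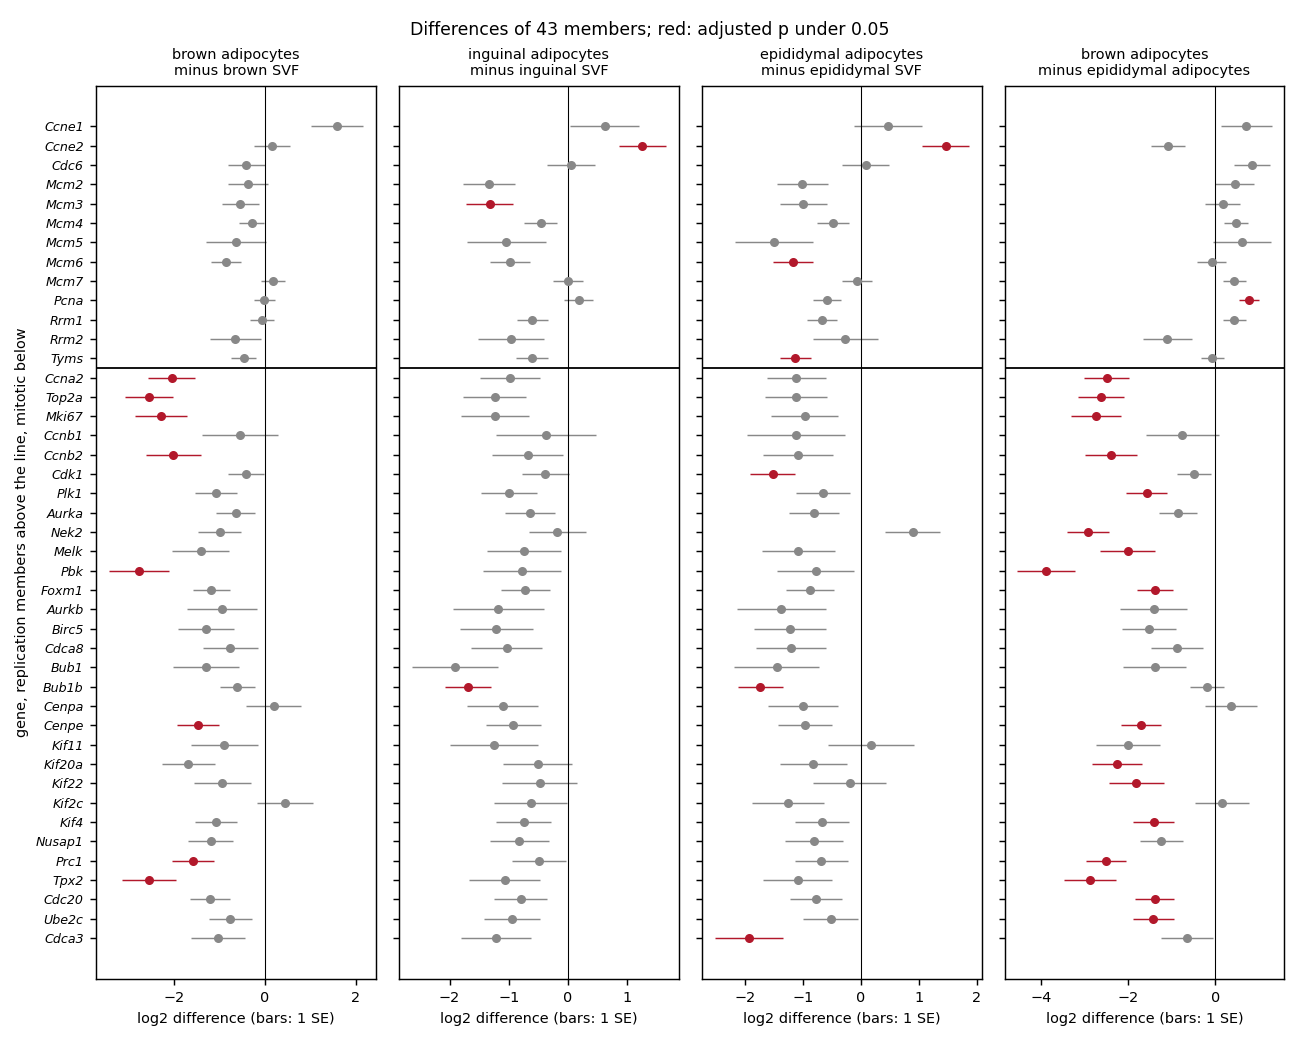
Log2 differences of the 43 members, replication members above the line and mitotic members below, in 4 comparisons; points are fitted differences, bars 1 SE, red marks limma adjusted p under 0.05, and the panels have their own scales. The red points are 8 mitotic members in brown fat, 3 members in inguinal fat, 6 in epididymal fat and 18 between brown and epididymal adipocytes.

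Whether the fraction difference differed between depots was tested as a contrast of 4 groups. None of the 43 members passed (limma) for brown minus inguinal, brown minus epididymal or inguinal minus epididymal, where 0.9%, 2.09% and 0.0781% of all genes passed. At an unadjusted p under 0.05 there were 1, 3 and 1 members, given without the share of all genes at that threshold. The smallest p belonged to Nek2, a centrosome kinase, for brown minus epididymal (difference of differences -1.89, SE 0.67, limma adjusted p = 0.133). The 8 falls in brown fat and the smaller counts in white fat were therefore not shown to differ.

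The second question was how the same fraction differs between depots. Brown adipocytes had lower mitotic genes than epididymal adipocytes: 17 of 43 members fell and 1 rose, where 28.8% of all genes were called, 11.7% higher and 17.1% lower. The member median was -1.24, against -0.04 for all genes, with -1.48 over mitotic and 0.43 over replication members. With dim arrays raised to the lowest measurable signal, the medians were -0.65 over all members, -1.24 over mitotic and 0.43 over replication members. All 17 were mitotic, by role 3 of 3 S to G2 genes, 6 of 9 mitotic kinases, cyclins and their factor, 1 of 7 passenger and kinetochore genes, 5 of 8 spindle motors and microtubule proteins, and 2 of 3 genes of the anaphase-promoting complex. Against inguinal adipocytes, 9 members fell and 0 rose, where 11.9% of all genes were called, 5.9% higher and 6.01% lower, with a median of -0.85 against 0.11, or -0.71 with dim arrays raised. Levels did not overlap for 30 members against epididymal adipocytes and for 20 against inguinal adipocytes, where 51.2% and 32.3% of all genes did not. These comparisons and the brown fraction comparison share the brown adipocyte libraries.

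Mki67 separated the adipocytes of the depots without overlap. Against -1.96, -1.68 and -2.15 in brown adipocytes, it had 0.61, 0.97 and -0.41 in inguinal adipocytes and 1.01, 0.75 and 0.67 in epididymal adipocytes. It was 5.00-fold lower in brown than in inguinal adipocytes (limma adjusted p = 0.0171) and 6.69-fold lower than in epididymal adipocytes (0.00333). The brown minus epididymal call was kept under 19 of 19 alternatives, with differences of -2.97 to -2.14.

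Ccna2 was 4.22-fold lower in brown than in inguinal adipocytes (limma adjusted p = 0.0181), whose levels were -0.81, -0.97 and -2.01, and 5.67-fold lower than in epididymal adipocytes (0.00324), whose levels were -0.69, -1.13 and -0.70. Top2a was below background in brown adipocytes and at least 1.30-fold lower than in epididymal adipocytes, where 2 of 3 arrays measured it. It also fell relative to inguinal adipocytes (limma adjusted p = 0.0194), where 3 of 3 arrays measured it, but there the bound gave no fold above 1.

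Pbk, at -5.51, -6.36 and -6.39 in brown adipocytes and below background on all 3 arrays, was at -3.42, -2.26 and -4.50 in inguinal adipocytes and at -2.02, -2.31 and -2.27 in epididymal adipocytes. It was at least 1.5-fold lower than in inguinal (limma adjusted p = 0.0167) and at least 3.45-fold lower than in epididymal adipocytes (0.00101). Tpx2 was at least 1.91-fold lower (0.0221) and at least 2.79-fold lower (0.00356) in those comparisons. Melk, a mitotic kinase, was at least 2.10-fold lower than in epididymal adipocytes (0.0266).

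Nek2 was at -5.38, -4.68 and -3.65 in brown, -3.15, -2.70 and -3.21 in inguinal, and -1.61, -1.38 and -1.96 in epididymal adipocytes. It fell in brown relative to inguinal (limma adjusted p = 0.0462) and to epididymal adipocytes (0.000825), while inguinal minus epididymal was -1.37 and did not pass (0.0885). Nek2 was above background on 1 of 3 brown adipocyte arrays. The fitted log2 differences were -1.55 and -2.92, and with the dim arrays raised to the lowest measurable signal they were -0.77 and -2.14.

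Ccnb2 fell 4.49-fold relative to inguinal and 5.28-fold relative to epididymal adipocytes, Prc1 3.89-fold and 5.70-fold, and Kif20a, a kinesin of cytokinesis, 4.16-fold and 4.78-fold. Relative to epididymal adipocytes, Kif22, a chromosome-arm kinesin, also fell 3.53-fold, Cenpe 3.25-fold, Plk1, the polo kinase, 2.98-fold, Ube2c, the ubiquitin-conjugating enzyme of the anaphase-promoting complex, 2.69-fold and Cdc20 2.65-fold. Kif4, a chromosome-bound kinesin, and Foxm1 also fell, but were above background on 2 and 1 of 3 brown adipocyte arrays. Their fitted log2 differences were -1.42 and -1.39, and -1.24 and -0.90 with the dim arrays raised to the lowest measurable signal. A second Cenpe probe gave 0.01 there. Of these 17 members, 12 had promoter windows, and 10 of their 13 windows held CHR letters (76.9%), where 77.8% of all mitotic windows held them.

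Members that did not pass against epididymal adipocytes included Cdk1 (-0.50) and Ccnb1 (-0.76), the kinase and cyclin of mitotic entry. Bub1b, which fell in adipocytes of both white depots, differed by -0.19 (limma adjusted p = 0.739). Mcm2 had a difference of 0.44, Mcm6 -0.09, Rrm2 -1.11 and Ccne1 0.71, though a second Ccne1 probe gave -0.85. Pcna was the member that rose. It was at 3.55, 3.86 and 3.78 in brown adipocytes and 2.84, 2.74 and 3.29 in epididymal adipocytes, a 1.71-fold higher level (0.0249), and its call was kept under 9 of 19 alternatives. Against inguinal adipocytes, Cdk1 (-0.96), Cdc20 (-1.06), Foxm1 (-1.22), Ccnb1 (-0.30), Mcm2 (0.06), Mcm6 (-0.65), Pcna (-0.11), Rrm2 (-0.73) and Ccne1 (0.05) did not pass.

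**Figure D5:**
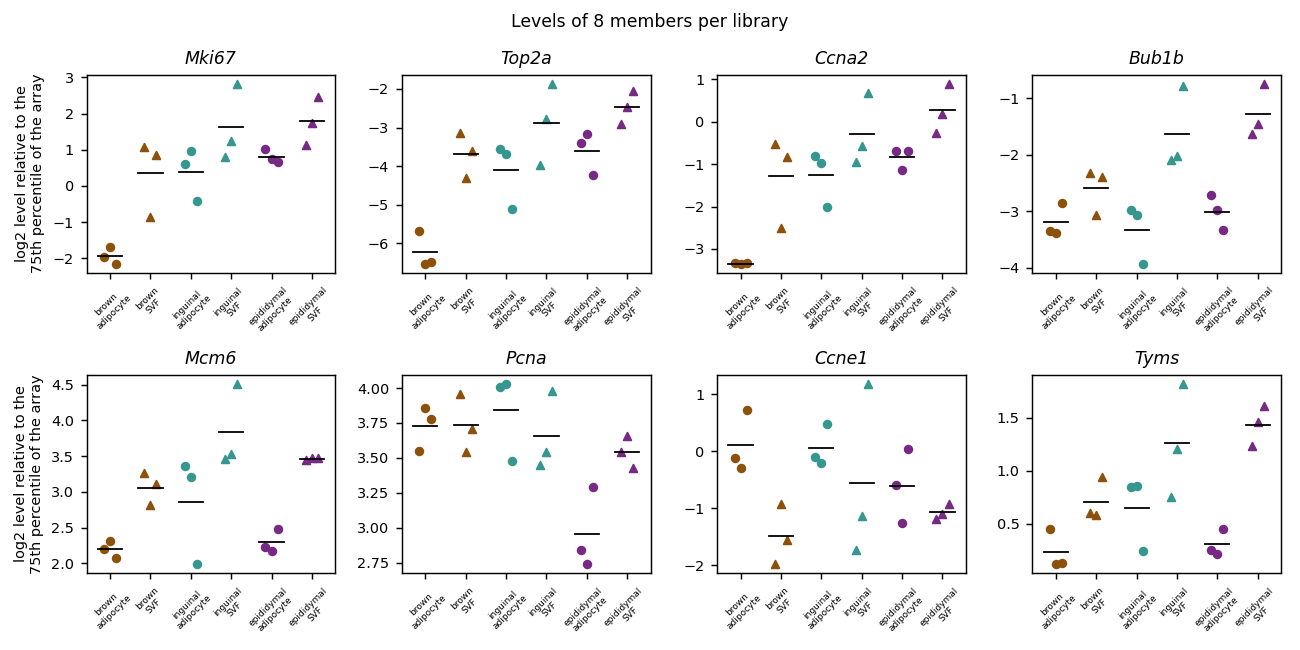
Log2 level of 8 members in each library relative to the 75th percentile of the array, each gene on its own axis; circles are adipocytes, triangles SVF, and the line is the group mean. Mki67, Top2a and Ccna2 have their lowest values in the 3 brown adipocyte libraries, though Top2a is above background on none of those arrays. By group mean, Pcna is lowest in epididymal adipocytes and Ccne1 in brown SVF.

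Both comparisons set brown arrays against arrays of another software version and other slides, and these cannot be told apart from the depot. The count called against inguinal adipocytes was 0 without inguinal adipocyte 1, 1 without inguinal adipocyte 2, 2, 4 and 3 without brown adipocyte 1, 2 and 3, and 12 without inguinal adipocyte 3. Against epididymal adipocytes it was 10 without epididymal adipocyte 1 and 11 without epididymal adipocyte 3, brown adipocyte 1 or brown adipocyte 3. Without epididymal adipocyte 3 and inguinal SVF 1, 13 fell and 1 rose. With arrays scaled to their median, 9 fell and 5 rose against epididymal adipocytes, since that scaling shifted every difference of this comparison by 0.61. A normexp background left 3 members called against epididymal and 0 against inguinal adipocytes. Markers of some other cells were also lower in brown adipocytes: 10 of 11 macrophage and 10 of 12 progenitor and fibroblast markers against epididymal adipocytes, and 8 of 11 and 10 of 12 against inguinal adipocytes, where 6 of 10 T and NK cell markers were lower too. Of the endothelial markers, 7 of 8 had a positive difference in each comparison, 1 being called higher and 1 lower, with medians of 0.56 against epididymal and 0.77 against inguinal adipocytes. The part of these cells was not tested.

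Inguinal and epididymal adipocytes differed in 1 of 43 members, where 7.94% of all genes were called, 0.926% higher and 7.01% lower. Levels did not overlap for 6 members, against 27.9% of all genes. Pcna was at 4.01, 4.03 and 3.48 in inguinal and at 2.84, 2.74 and 3.29 in epididymal adipocytes, 1.85-fold higher in inguinal adipocytes (limma adjusted p = 0.0355), a call kept under 6 of 19 alternatives. It was lost without inguinal adipocyte 1 or any 1 of the epididymal adipocyte libraries, and without inguinal adipocyte 3 there were 3 calls. The member median of -0.23 became 0.31 with arrays scaled to their median and 0.28 after quantile normalization, so no direction of the set is given. Differences that did not pass were -0.42 for Mki67, -0.50 for Top2a, -0.43 for Ccna2, -0.46 for Ccnb1, 0.45 for Cdk1, -0.34 for Cdc20, -0.17 for Foxm1, 0.38 for Mcm2, 0.56 for Mcm6, -0.38 for Rrm2 and 0.66 for Ccne1.

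Between the SVF groups, 0 of 43 members passed in any comparison (limma), where 2.35% of all genes passed for brown minus inguinal, 1.74% for brown minus epididymal and 0.291% for inguinal minus epididymal. At an unadjusted p under 0.05 there were 6, 25 and 2 members. The share of all genes at that unadjusted threshold is not given, so these counts are not read as results about the members. The member medians were -0.85, -1.09 and -0.25, and levels did not overlap for 5, 27 and 2 members, against 18.3%, 22.9% and 11.6% of all genes. Mki67 was at 1.09, -0.86 and 0.85 in brown SVF, 0.79, 1.24 and 2.83 in inguinal SVF and 1.14, 1.74 and 2.47 in epididymal SVF. Brown and epididymal SVF did not overlap for Mki67, and the difference was -1.43 (SE 0.57, adjusted p = 0.325).

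Cdk1 came nearest between brown and epididymal SVF, with -2.38, -3.80 and -2.41 in brown SVF, against -1.62, -1.27 and -0.89 in epididymal SVF (difference -1.60, SE 0.39, limma adjusted p = 0.0519). For the other members followed, brown minus epididymal SVF gave -1.20 for Top2a, -1.55 for Ccna2, -1.33 for Ccnb1, -0.96 for Cdc20, -1.09 for Foxm1, -0.20 for Mcm2, -0.40 for Mcm6, 0.19 for Pcna, -0.74 for Rrm2 and -0.41 for Ccne1. On the 1 slide that held all 3 SVF groups, with 1 array each, the median was -1.56 for brown minus inguinal and -1.44 for brown minus epididymal. Inguinal minus epididymal SVF had a median of 0.21 on that slide and of -0.51 on the other slide with both groups, which held the library labelled inguinal SVF 1.

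Brown minus inguinal SVF differences were -1.26 for Mki67, -0.81 for Top2a, -1.0 for Ccna2, -0.12 for Ccnb1, -0.91 for Cdk1, -0.64 for Cdc20, -0.76 for Foxm1, -0.90 for Mcm2, -0.77 for Mcm6, 0.08 for Pcna, -1.04 for Rrm2 and -0.92 for Ccne1. Cdc6, the loader of the MCM helicase, had the largest positive one, 1.35 (SE 0.41, limma adjusted p = 0.0986), with -0.96, -2.56 and -1.27 in brown SVF, against -3.46, -3.09 and -2.30 in inguinal SVF. Without brown SVF 2, 1 member rose in brown SVF in each of the comparisons with inguinal and epididymal SVF. Inguinal minus epididymal SVF gave -0.16 for Mki67, -0.39 for Top2a, -0.55 for Ccna2, -1.21 for Ccnb1, -0.69 for Cdk1, -0.32 for Cdc20, -0.33 for Foxm1, 0.70 for Mcm2, 0.37 for Mcm6, 0.12 for Pcna, 0.30 for Rrm2 and 0.51 for Ccne1.

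The members not called in any comparison were 10 mitotic and 8 replication genes. Kif11, the motor that pushes spindle poles apart, was above background on 0 of 3 brown and 2 of 3 epididymal adipocyte arrays and at least 1.13-fold lower in brown adipocytes, which did not pass (limma adjusted p = 0.0546). Birc5, survivin of the chromosomal passenger complex, had -1.52 between brown and epididymal adipocytes and -1.30 between brown adipocytes and brown SVF. Its levels were -1.48, -1.09 and -0.25 in brown adipocytes, against 0.89, -0.77 and 0.95 in brown SVF, so the fractions overlapped through brown SVF 2.

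Between brown adipocytes and brown SVF, Nusap1, a microtubule-binding protein, had -1.20, Cdca8, a subunit of the passenger complex, -0.76, Aurka, the centrosome kinase, -0.64, and Cenpa, the centromeric histone, 0.19. None of these passed. Bub1, a checkpoint kinase, and Aurkb, the kinase of the passenger complex, were above background on 0 of 3 brown adipocyte arrays and Kif2c, a microtubule depolymerase, on 1. For these 3 genes the brown SVF mean was below the lowest signal measurable in brown adipocytes, so no difference is given. Of the helicase subunits, Mcm4 had -0.29, Mcm5, whose promoter is printed with its E2F letters, -0.64, and Mcm7 0.18, and Rrm1, the large subunit of ribonucleotide reductase, had -0.07. In epididymal adipocytes minus epididymal SVF these 4 were at -0.48, -1.49, -0.06 and -0.67, and in inguinal adipocytes minus inguinal SVF at -0.46, -1.04, 0 and -0.60.

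A further 116 cell cycle genes, listed by function beside the members, were read in the same fit, and 111 were tested. In brown adipocytes minus brown SVF, 5 rose and 9 fell, with a median of -0.24, where 11.6% of all genes rose and 8.74% fell, so the share of the list called was not above that of all genes. Of 44 other mitotic genes tested, 6 fell and 1 rose there, with a median of -0.78. Cenpf, a kinetochore protein, was below background in brown adipocytes on all 3 arrays and at least 4.57-fold lower than in brown SVF (limma adjusted p = 0.000262), at least 3.32-fold lower than in inguinal and at least 5.68-fold lower than in epididymal adipocytes. Shcbp1, a midbody protein, was at least 1.83-fold, Ncapg, a condensin subunit, at least 3.84-fold, and Kif23, a midzone kinesin measured on 2 of 3 brown adipocyte arrays, 4.11-fold lower than in brown SVF. Pttg1, the securin that guards sister chromatids, rose instead, 2.07-fold. Its levels were 5.46, 4.82 and 5.78 in brown adipocytes, against 4.17, 4.33 and 4.43 in brown SVF.

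Of the genes of origin control, Orc3, a subunit of the origin recognition complex, and Gmnn rose in brown adipocytes relative to brown SVF. Gmnn, geminin, the inhibitor of licensing, was at 3.76, 3.40 and 4.61 in brown adipocytes, against 2.18, 2.04 and 2.50 in brown SVF, 2.40, 2.15 and 1.97 in inguinal adipocytes and 1.03, 0.83 and 1.64 in epididymal adipocytes. Brown adipocytes lay above all 3 other groups, by 3.21-fold (limma adjusted p = 0.00408), 3.36-fold (0.00735) and 6.76-fold (0.000214). Gmnn also had a fraction difference that was larger in brown than in epididymal fat (2.29, SE 0.51, adjusted p = 0.0323). Rpa3, a subunit of the single-strand binding protein, was 1.83-fold higher in brown adipocytes than in brown SVF but fell to 0.451 of the SVF level in inguinal and 0.466 in epididymal adipocytes. Its fraction difference was larger in brown than in inguinal fat (2.02, adjusted p = 0.0184) and in epididymal fat (1.98, adjusted p = 0.0141). Of the 111 genes, 1 passed for brown minus inguinal and 2 for brown minus epididymal. Of all genes, 0.9% and 2.09% passed, so the shares of the list were close to those of all genes. The inguinal and epididymal adipocyte arrays had their own software version and slides, which cannot be told apart from these depot differences.

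Among the regulators of entry, Ccnd1, the cyclin D1 that answers mitogens, was at -1.59, -1.27 and -1.93 in brown adipocytes, against 0.14, -0.50 and -0.43 in brown SVF, and fell to 0.396 of that level (limma adjusted p = 0.0103). In epididymal adipocytes it was at 1.81, 1.65 and 1.43, so that brown adipocytes had 0.107 of their level (adjusted p = 4.5e-05). The inhibitor Cdkn2c, p18, was at 3.91, 3.55 and 3.99 in brown adipocytes, against 1.32, 2.77 and 1.80 in brown SVF, and rose 3.61-fold (0.00654). In inguinal adipocytes Cdkn2c was at 3.21, 3.54 and 4.64, against 2.22, 1.65 and 0.74 in inguinal SVF, and rose 4.80-fold (0.00402). E2f1 fell to 0.482 of the SVF level in brown and 0.417 in inguinal adipocytes.

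Thymidine kinase, Tk1, fell to 0.240 of the brown SVF level in brown adipocytes, where 2 of 3 arrays measured it. In inguinal adipocytes minus inguinal SVF, where 14.2% of all genes were called, 3 of the 111 genes rose and 4 fell, with a median of -0.51, and the replication fork genes that fell were Prim2, a primase subunit, and Rpa3. In epididymal adipocytes minus epididymal SVF, 3 rose and 11 fell, with a median of -0.50, where 25.2% of all genes were called and 7.31% fell. Of 22 replication fork genes 6 fell there, among them Fen1, the flap nuclease, Pola1 and Prim1, subunits of polymerase alpha, and Prim2. Brown minus epididymal adipocytes gave 10 higher and 20 lower of the 111, a share close to the 28.8% of all genes called there. Of the 44 other mitotic genes, 14 fell and 2 rose, where 17.1% of all genes fell and 11.7% rose. Brown minus inguinal adipocytes gave 5 higher and 9 lower, where 11.9% of all genes were called. Between the SVF groups, 2 of the 111 passed, Ccnd1 and Cdkn2b, the p15 inhibitor, both lower in brown than in epididymal SVF. In that comparison 1.74% of all genes passed, so the share of the list called was close to that of all genes.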

How the data were processed

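RNA of 18 adipocyte and SVF samples was hybridised to one-colour Agilent 4x44K mouse arrays. Per the file headers, the authors extracted the images with Agilent Feature Extraction 9.5.3.1 (6 arrays) or 10.5.1.1 (12 arrays), and the deposited files give each spot a background-corrected processed signal (intensity). The deposited series matrix holds log2 values whose normalization is not given in the sources used here. It served as an alternative. A one-colour array has no read depth, and 3 arrays a group limit the precision.

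Control spots and those marked as non-uniform or outliers were dropped before spots sharing a probe were averaged. Levels are log2 intensity, with each array's 75th percentile set to 0. Some group had to have a probe well above background on 3 of its 3 arrays, which held for 28595 of 41174 probes. A gene took its brightest kept probe. Members were found by symbol, older synonym or accession. A probe named Aim1, an old synonym of Aurkb, was left out because its array annotation places it on chromosome 10 and Aurkb lies on 11. Probes were named through the supplied RefSeq table. Groups came from the sample titles, characteristics and sources.

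limma 3.58.1 (R 4.3.3) fitted all 19217 genes with 6 groups and 12 contrasts, two-sided, with Benjamini-Hochberg adjustment over all genes and a threshold of 0.05. The fit was run on simulated arrays with independent normal noise and no signal floor, slide, software version or outlying library. That run checked the calculation only, not how the fit meets those features of the real arrays. p-values measure the spread between these samples. Followed in every comparison were Mki67, Top2a, Ccna2, Ccnb1, Cdk1, Cdc20, Mcm2, Mcm6, Pcna, Rrm2, Ccne1 and Foxm1, with, in each comparison, up to 5 called members per direction by size, members whose probes disagree in sign and up to 4 called genes per direction of each other list. Further members are given because all 45 were to be accounted for. The members and lists were chosen with earlier results of these data known. Same-numbered adipocyte and SVF samples deviated together in epididymal fat (r of 0.42, 0.48 and 0.14). They did not in brown (-0.12, -0.05 and 0.39) or inguinal fat (-0.14, 0.05 and -0.23). The labels give no pairs, and the main fit paired no samples in any depot. The replicate block among the alternatives paired the numbers in every depot. Alternatives covered scaling, filters, background, probes, blocks, weights and left-out arrays. Promoter letters came from RefSeq windows (GRCm38.p6). Python 3.11.15, pandas 2.3.3 and matplotlib 3.10.9 were used for tables and figures.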

Additional observations from a re-analysis of the deposited data

How the results depend on the processing

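No named call changed sign under any alternative. Counts of members called are given here as higher and lower, for results that moved beyond 1.5 times. The share of all genes called under each alternative is not given. These counts, and those with libraries left out, are therefore not read as results about the members in particular. Brown adipocytes minus brown SVF had 0 and 13 with scan day and 0 and 14 (14 in all) with slide as a fixed block, 1 and 28 (29) with array weights and 0 and 1 with normexp on median signals, an alternative chosen after seeing the data. Brown minus inguinal adipocytes had 0 and 29 with weights, 0 and 5 in the series matrix and in probes above background on all 18 arrays, and 0 with normexp. Brown minus epididymal adipocytes had 2 and 26 (28) with weights, 1 and 9 (10) in probes above background everywhere and 0 and 3 with normexp. Inguinal adipocytes minus inguinal SVF had 0 and 1 with probe means, no filter, scan day or slide as a random block, 0 with normexp or with the compared groups alone, and 1 and 4 (5) without the 2 libraries that stand apart. Epididymal adipocytes minus epididymal SVF had 0 and 17 with median scaling, 1 and 18 (19) with weights, 0 and 12 in the matrix, 0 and 11 after quantile normalization, 1 and 9 (10) with the compared groups alone, and 0 and 3 with normexp or in probes above background everywhere. Inguinal minus epididymal adipocytes had 3 and 0 with median scaling, 6 and 2 (8) with weights, and 0 with the matrix, quantile, normexp, stricter filter, compared groups or random blocks. Between SVF groups, brown minus inguinal had 1 and 0 with weights and 0 and 11 with normexp, brown minus epididymal 1 and 6 (7) with weights, 0 and 1 with probe means and 0 and 2 with scan day, and inguinal minus epididymal 2 and 0 with normexp. For the differences between depots in the fraction difference, weights gave 0 and 11 for brown minus inguinal, 2 and 10 (12) for brown minus epididymal and 1 and 0 for inguinal minus epididymal. The causes were not tested.

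With the replicate number as a block, that is with samples paired by number, brown minus inguinal adipocytes had 3 members called, inguinal adipocytes minus inguinal SVF 1 and inguinal minus epididymal adipocytes 0. The block changed no other count beyond 1.5 times. Leaving out 1 library at a time gave counts of 3 to 13 for the brown, 0 to 6 for the inguinal and 2 to 5 for the epididymal fraction comparison, 0 to 12 for brown minus inguinal, 10 to 17 for brown minus epididymal and 0 to 3 for inguinal minus epididymal adipocytes, 0 to 1 for brown SVF minus inguinal or epididymal SVF, and 0 to 0 elsewhere. Of 30 named calls, 1 was kept under every alternative run, Mki67 in brown minus epididymal adipocytes. The planned normexp on mean signals was not run because 12 of the 18 files have no such column. Signal over background limits brown adipocytes most, where 26 to 35 members were measured.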
